A study of Mus musculus with 8 samples.

Results

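Bitter taste receptors of the mouse are encoded by the Tas2r genes. They were taken here as every protein-coding gene of the mm10 build whose symbol is Tas2r followed by digits, which gave 35 of the 21519 protein-coding genes with a replication timing score. All 35 had a score in every profile. They lay on 3 chromosomes, 33 of them on chromosome 6, with Tas2r134 alone on chromosome 2 and Tas2r119 alone on chromosome 15. Genes with midpoints at most 1 Mb apart were joined into 6 loci, of which 3 held a single gene. The largest locus, at 131.6 to 133.1 Mb of chromosome 6, held 24 genes, and a gap of 968 kb divided it into a run of 6 genes, Tas2r130 to Tas2r114, and a run of 18 genes, Tas2r120 to Tas2r140.

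Tas2r proteins are G protein-coupled receptors that sense bitter compounds in taste cells of the tongue and palate, and several are also found in airway, gut and smooth muscle. Most of the genes are short, have 1 coding exon and sit in tandem arrays that grew by duplication. Replication timing is the order in which stretches of a chromosome are copied during S phase, and gene-poor, silent chromatin, which includes many arrays of sensory receptor genes, is usually copied late.

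The samples were mouse embryonic stem cells labelled mESC, either control or treated with dTAG in a series on YY1 depletion. dTAG is a compound that sends a protein carrying the matching tag to the proteasome. YY1, the protein depleted, is a zinc finger factor found at promoters and enhancers. Treated cells were labelled as day 2 after dTAG. For age, strain, clone and whether the controls carry the tagged protein the labels give nothing beyond a reference to an earlier publication. The 8 samples made 4 profiles, control 1, control 2, dTAG 1 and dTAG 2, each from an early and a late S phase fraction of 40000 cells labelled with BrdU for 2 h. For dTAG 1 the sample titles and the stated fractions disagree on which sample is early. The deposited timing score of dTAG 1 ran in the same direction as the others. Its Pearson correlation over positions was 0.993 with control 1, 0.966 with control 2 and 0.969 with dTAG 2. Each profile gave a signed score on a grid of 5 kb, without read counts, so the depth behind a value is unknown. High scores were read as early replication, because 98.8% of 81 ribosomal protein genes and 8 of 8 embryonic stem cell marker genes, such as Pou5f1 and Nanog, scored above 0 in all 4 profiles. Of all protein-coding genes 77.5% scored above 0 in all 4 profiles, so the marker genes cannot check the cell type. No expression was measured, and the cell type rests on the labels. The labels do not say whether the replicates came from separate cultures. The p-values below measure the spread between these 4 profiles, which may be technical.

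The profiles differed more by replicate number than by treatment. Ranked by size, the scores of control 1 equalled those of dTAG 1 to within 5.2e-05, and control 2 held the same numbers with the sign turned, to within 0.000134. The profiles numbered 1 therefore had a mean of 0.1993 and control 2 and dTAG 2 a mean of -0.1993. At the Tas2r genes control 2 scored below control 1 in 34 of 35 and dTAG 2 below dTAG 1 in 35 of 35. Each pooled difference is therefore followed by the difference within number 1 (dTAG 1 and control 1) and within number 2 (dTAG 2 and control 2).

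The starts of 5 genes that mark the ends of the ranges below are printed here, because YY1 binds near many gene starts and its core motif can be searched for in them. They are RefSeq promoter windows of GRCm38.p6, the assembly behind mm10, each 300 bases long with 250 bases before the annotated start and 50 after it, read 5′ to 3′ on the gene's strand. Capitals mark the YY1 core, ATGGC or its reverse complement GCCAT. Tas2r137 (chr6:40490988-40491287, plus strand) had the highest mean score, Tas2r122 (chr6:132711879-132712178, minus strand) the lowest, Tas2r118 (chr6:23970011-23970310, minus strand) the highest dTAG minus control difference, Tas2r144 (chr6:42215078-42215377, plus strand) the lowest difference on chromosome 6, and Tas2r114 (chr6:131690014-131690313, minus strand) the most core matches.
Tas2r137: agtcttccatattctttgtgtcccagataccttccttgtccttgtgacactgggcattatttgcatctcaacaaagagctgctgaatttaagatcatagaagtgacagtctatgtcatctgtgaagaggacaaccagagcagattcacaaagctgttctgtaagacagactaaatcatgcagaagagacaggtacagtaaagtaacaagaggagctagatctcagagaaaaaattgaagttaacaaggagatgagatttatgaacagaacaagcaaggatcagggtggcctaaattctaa
Tas2r122: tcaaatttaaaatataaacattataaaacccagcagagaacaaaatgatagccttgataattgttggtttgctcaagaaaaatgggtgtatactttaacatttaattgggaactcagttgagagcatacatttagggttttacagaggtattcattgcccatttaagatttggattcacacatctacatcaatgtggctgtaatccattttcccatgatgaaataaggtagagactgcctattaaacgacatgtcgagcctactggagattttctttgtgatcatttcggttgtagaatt
Tas2r118: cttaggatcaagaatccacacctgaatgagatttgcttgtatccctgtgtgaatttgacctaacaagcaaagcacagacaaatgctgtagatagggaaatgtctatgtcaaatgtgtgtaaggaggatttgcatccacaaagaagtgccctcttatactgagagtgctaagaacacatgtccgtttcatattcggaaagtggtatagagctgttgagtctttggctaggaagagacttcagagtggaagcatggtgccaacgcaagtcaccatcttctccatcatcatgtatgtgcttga
Tas2r144: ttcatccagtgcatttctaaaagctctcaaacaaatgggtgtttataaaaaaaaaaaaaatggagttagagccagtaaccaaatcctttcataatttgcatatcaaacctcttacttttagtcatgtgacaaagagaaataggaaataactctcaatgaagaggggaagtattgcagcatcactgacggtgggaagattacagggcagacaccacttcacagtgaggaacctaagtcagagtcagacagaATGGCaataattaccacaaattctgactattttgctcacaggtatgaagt
Tas2r114: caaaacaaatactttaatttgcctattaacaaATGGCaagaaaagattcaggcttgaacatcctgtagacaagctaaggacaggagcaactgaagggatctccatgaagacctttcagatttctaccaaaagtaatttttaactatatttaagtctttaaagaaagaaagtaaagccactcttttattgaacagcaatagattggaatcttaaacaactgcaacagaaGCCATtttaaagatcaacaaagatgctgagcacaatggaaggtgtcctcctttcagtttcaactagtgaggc

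Of the 35 genes 31 had such a window; Tas2r121, Tas2r136, Tas2r117 and Tas2r116 had none. In 29 of the 31 windows (93.5%) the base after the first 250 opened an ATG, against 5.83% of all 32851 windows, so the annotated start of these genes is their start codon and the window is the sequence just upstream of the coding exon. The YY1 core was present on either strand in 9 of the 31 (29.0%), against 40.5% of all windows. Among other chemosensory receptors it was present in 39.2% of Olfr, 26.3% of Vmn1r and 44.4% of Vmn2r windows. In Tas2r144 and in Tas2r139 the only match overlapped the start codon, since it began at the first base of the gene. In Tas2r125, Tas2r123 and Tas2r135 the only match also lay inside the coding exon, from its base 13, 26 and 38. By run the core was found in 3 of 5 windows from Tas2r139 to Tas2r126, each time in coding bases. It was found in 2 of 6 windows from Tas2r130 to Tas2r114, and in 2 of 14 from Tas2r120 to Tas2r140, both in coding bases. The 9 genes with the core had a median dTAG minus control difference of -0.17 score units and the 22 without it 0.51, but genes of a run share both their neighbourhood and their timing, so these are not independent. A match of 5 letters is a description and not a binding site.

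The windows were poor in GC. Their median was 37.0% (28.7% to 49.0%), against 52.7% over all windows, and they held a median of 1 CpG against 7. The windows of other chemosensory receptors were alike in this, with medians of 35.0% for Olfr, 36.0% for Vmn1r and 38.0% for Vmn2r genes. Among the Tas2r genes the median was 32.8% from Tas2r120 to Tas2r140, 37.3% from Tas2r130 to Tas2r114 and 44.3% from Tas2r139 to Tas2r126. The TATA box letters TATAAA or TTTATA were present in 32.3% of the Tas2r windows and in 13.6% of all. They were present in 41.2% of Olfr, 42.4% of Vmn1r and 23.1% of Vmn2r windows, so a share above that of all windows was not particular to Tas2r genes. After pairwise alignment, the 5 pairs of windows most alike were each from 1 locus: Tas2r123 and Tas2r110 shared 75.3% of bases in the best pair and Tas2r104 and Tas2r105 shared 70.7%, where the median of 465 pairs was 60.3%.

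Bitter receptor genes replicated late. Of the 35 genes 30 scored below 0 in all 4 profiles, where 17.9% of all protein-coding genes did. Of these 30, 24 were the genes of the largest locus, which share smoothed reads and are not independent. Only Tas2r137 and Tas2r108 scored above 0 in all 4, which 77.5% of all genes did, and Tas2r134, Tas2r143 and Tas2r119 were on both sides of 0. The median gene of the family had a mean score of -2.40 and stood at percentile 9.40 of all genes. All 35 were below the median gene, whose mean score was 3.25.

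**Figure D1:**
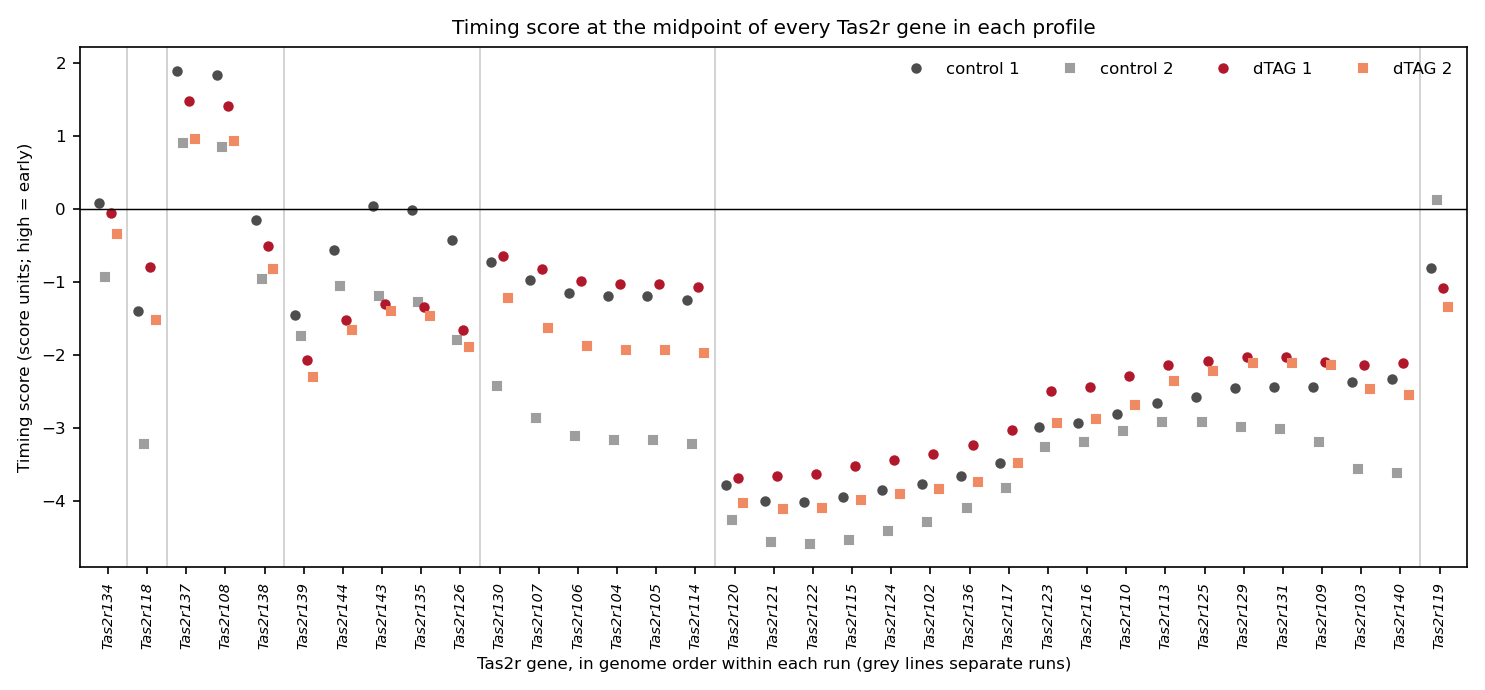
Timing score (score units, high read as early) of the 35 Tas2r genes in genome order, with dark and light grey for control 1 and control 2, red and orange for dTAG 1 and dTAG 2, and vertical grey lines between runs. Tas2r137 and Tas2r108 are the only genes above 0 in every profile, the 18 genes from Tas2r120 to Tas2r140 are the lowest run, and control 2 is the lowest profile throughout the genes from Tas2r130 to Tas2r140.

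The latest run was that of Tas2r120 to Tas2r140 (chr6:132656957-133055793). Its 18 genes scored on average -3.14 in control 1, -3.68 in control 2, -2.75 in dTAG 1 and -3.09 in dTAG 2. Each gene was below 0 in every profile, and they stood between percentiles 1.16 and 9.40 of all genes by mean score. Within the run the score was not even but had a low and a high end.

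Tas2r122 was the latest gene of the whole family. It scored -4.02 in control 1, -4.58 in control 2, -3.64 in dTAG 1 and -4.09 in dTAG 2. On the mean profile it lay 6.46 kb from the lowest position within 200 kb on either side, so that the gene sits at the floor of a valley. Tas2r120, the first gene of the run, was nearly as late, at -3.79, -4.26, -3.68 and -4.02 in the same order. From Tas2r122 the score went up gene by gene to Tas2r129, 240.1 kb further on, by 1.69 in the mean, and the step was 1.57, 1.59, 1.61 and 1.98 in control 1, control 2, dTAG 1 and dTAG 2. Tas2r129, the earliest gene of the run by its mean, scored -2.45, -2.99, -2.03 and -2.12. Tas2r140, at the far end, scored -2.33 in control 1 but -3.62 in control 2, with -2.11 in dTAG 1 and -2.56 in dTAG 2. All 4 profiles thus held the slope from Tas2r122 to Tas2r129, and beyond it control 2 and, less so, dTAG 2 were lower again while control 1 was not.

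The run of Tas2r130 to Tas2r114 (chr6:131629892-131690063), 968 kb to the left, was less late. It holds Tas2r105, known as the cycloheximide receptor of the mouse. The means of its 6 genes were -1.08 in control 1, -2.99 in control 2, -0.93 in dTAG 1 and -1.76 in dTAG 2. Tas2r130 scored -0.73, -2.42, -0.64 and -1.22 in that order, and Tas2r114 scored -1.25, -3.21, -1.08 and -1.98. Scores went down from Tas2r130 to Tas2r114 by 0.63 over 59.2 kb. Control 2 stood apart here, 1.70 to 1.97 below control 1 at the 6 genes. Tas2r104 and Tas2r105 took their score from the same position, so the family has 34 distinct values.

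Between both runs lay 7 other protein-coding genes, most of them for proline-rich salivary proteins (Prb1, Prpmp5, Prh1, Prp2, and Gm4736, Gm8882 and A630073D07Rik), all below 0 in every profile with means of -4.21 to -3.29. The lowest position between the runs had a mean of -4.21. The 5 Tas2r pseudogenes inside or beside the longer run had means of -3.64 to -2.40, which is the range of their intact neighbours.

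The 5 genes from Tas2r139 to Tas2r126 (chr6:42140936-42435461) were moderately late. They include Tas2r143, Tas2r135 and Tas2r126, a compact trio that is also known from vascular smooth muscle and heart. Tas2r139 scored -1.45 in control 1, -1.75 in control 2, -2.06 in dTAG 1 and -2.30 in dTAG 2. Tas2r144 scored -0.56, -1.05, -1.52 and -1.67 in the same order. Both genes were lower in each dTAG profile than in either control. Tas2r143 scored 0.04, -1.20, -1.30 and -1.40, and Tas2r135, which begins a few kb away, scored -0.02, -1.27, -1.35 and -1.46. Tas2r126 scored -0.42, -1.79, -1.66 and -1.89. At these last 3 genes control 1 stood apart from the other 3 profiles, which lay close together, and at Tas2r126 control 2 was below dTAG 1.

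The earliest bitter receptor genes were those at 40.5 to 40.6 Mb of chromosome 6, Tas2r137, Tas2r108 and Tas2r138 (chr6:40491238-40613310). Tas2r108 is known as a receptor for denatonium, and Tas2r138 is the mouse counterpart of the human receptor for phenylthiocarbamide. Tas2r137 scored 1.89 in control 1, 0.90 in control 2, 1.48 in dTAG 1 and 0.96 in dTAG 2, and Tas2r108, next to it, 1.84, 0.85, 1.41 and 0.92. Tas2r138 scored -0.15, -0.96, -0.51 and -0.83. A drop of 1.92 over 121.1 kb thus put Tas2r138 on the late side of 0 and its neighbours on the early side. Even Tas2r137 was only at percentile 28.0 of all genes.

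The 3 genes without a neighbour of the family lay in unlike places. Tas2r118 (chr6:23969161-23970060) scored -1.39 in control 1, -3.23 in control 2, -0.80 in dTAG 1 and -1.52 in dTAG 2. It lay on the shoulder of a small rise in late-replicating sequence: within 200 kb the mean profile was highest, at -1.47, at 64.6 kb to its left, and came down to -2.80 on the left and -3.13 on the right. Tas2r134 (chr2:51627511-51628407) scored 0.08, -0.93, -0.06 and -0.35, and lay 7.96 kb from the lowest point of a shallow dip between early stretches. Tas2r119 (chr15:32177289-32178294) scored -0.81, 0.12, -1.08 and -1.34, the only gene of the family at which control 2 was above control 1.

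The surroundings of the runs differed in how far away early replication began. Tas2r137 was itself above 0 in all 4 profiles, and it took its score from a position 1.74 kb to the left of its midpoint. To the right of Tas2r138 the nearest position above 0 in all 4 profiles was 6417 kb away. From Tas2r139 to Tas2r126 it was 1586 kb to the left and 4595 kb to the right, and for Tas2r118 it was 6085 kb and 4310 kb. At 690 kb to the right of Tas2r118, however, only dTAG 2 missed this rule. The scores there were 0.47 in control 1, 0.51 in control 2, 0.03 in dTAG 1 and -0.67 in dTAG 2. The run from Tas2r120 to Tas2r140 lay 3547 kb from early sequence on its left and 670 kb on its right, where the score climbed to a mean of 3.53 within 1 Mb. Tas2r134 had early positions 188 kb and 112 kb away. By this rule, which 1 profile can decide, late Tas2r genes lay both far from early sequence and near it.

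**Figure D2:**
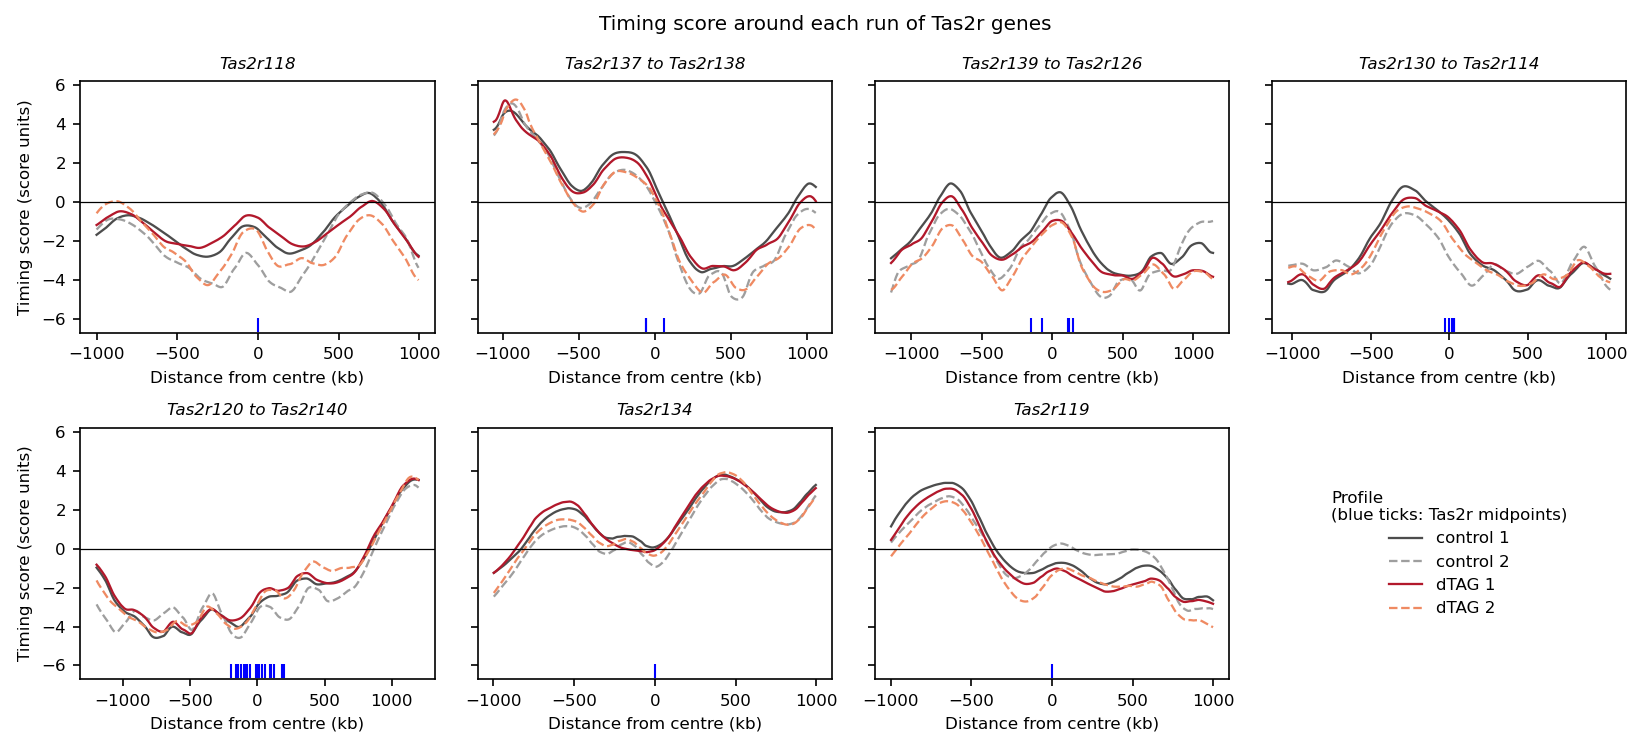
Timing score (score units) against distance in kb from the centre of each of 7 runs or single Tas2r genes, up to 1 Mb beyond the outermost genes; solid lines are control 1 (grey) and dTAG 1 (red), dashed lines control 2 (grey) and dTAG 2 (orange), and blue ticks are Tas2r midpoints. Tas2r137 to Tas2r138 sit on a steep slope from early to late, Tas2r120 to Tas2r140 on a slope that climbs to 3.53 within 1 Mb on the right, and Tas2r134 in a dip beside early sequence.

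After dTAG the scores of most bitter receptor genes were somewhat higher with all 4 profiles, but none passed the test, and without control 2 their median difference was near 0. limma, fitted across all 21519 genes with group as the only term, called 0 genes at a Benjamini-Hochberg adjusted p of 0.05 (0% of all genes), with 171 genes and 0 Tas2r genes at an unadjusted p under 0.05. The median difference of the 35 genes was 0.43 score units, 0.22 within replicate number 1 and 0.49 within number 2, against -0.02 over all genes. Without control 2 the family median was -0.0027 and without dTAG 1 it was 0.21, with median differences over all genes of -0.22 and -0.28. With the all-gene median score subtracted from each profile, the family median was 0.17 and 0.42 in these settings. In 9 genes both dTAG profiles were above both controls (25.7% of the family), where 10.0% of all genes were. In 5 genes both were below both controls (14.3%), where 8.42% of all genes were. In the other 21 the groups overlapped. These counts changed when 1 profile was left out, as did those of all genes. The 9 became 29 without control 1 (37.3% of all genes) and 25 without dTAG 2 (46.1% of all genes). The 5 became 10 without control 2 (41.8% of all genes). Within both replicate numbers dTAG was the higher in 25 genes (25.3% of all genes) and the lower in 6 (30.6% of all genes), while 4 genes went opposite ways in the 2 numbers. Among the 3846 genes that scored below 0 in all profiles, as most Tas2r genes did, dTAG was higher in both numbers in 29.8%, and both dTAG profiles were above both controls in 10.1% and below them in 11.4%. With the replicate number as a block 10 of the 35 had an unadjusted p under 0.05, where 7.68% of all genes did, and limma still called 0. Genes of a run share smoothed reads, so these counts stand for few independent places: the 25 genes were Tas2r118 and the genes of 2 runs, and the 9 came from 1 run.

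**Figure D3:**
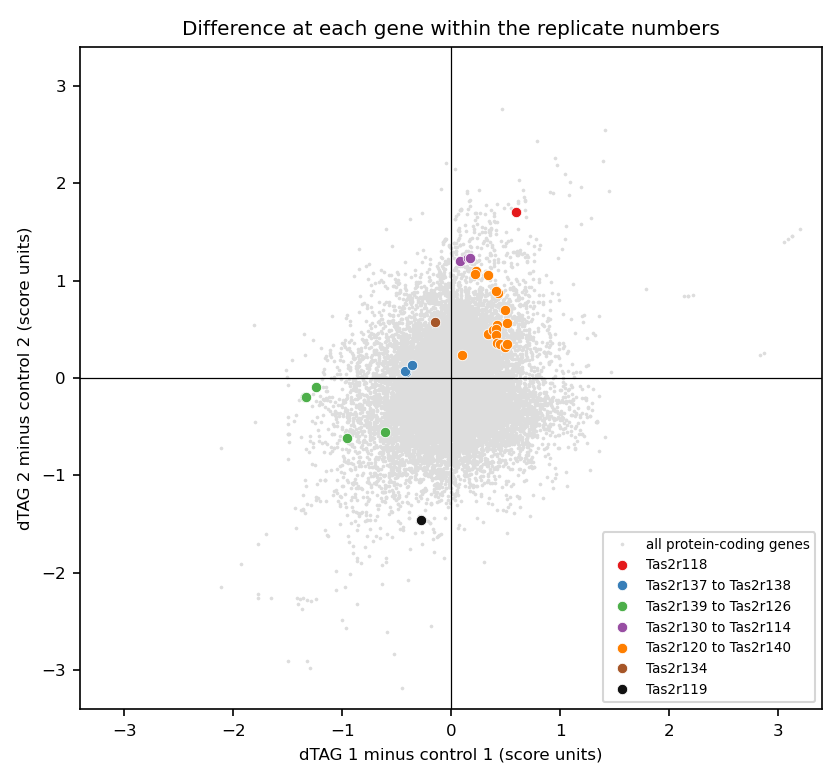
dTAG 1 minus control 1 (horizontal, score units) against dTAG 2 minus control 2 (vertical, score units) for all 21519 protein-coding genes (grey) and the 35 Tas2r genes, coloured by run. The genes from Tas2r130 to Tas2r140 and Tas2r118 lie in the upper right, those from Tas2r139 to Tas2r126 and Tas2r119 in the lower left, and the rest between.

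In the long run from Tas2r120 to Tas2r140 all 18 genes had higher scores after dTAG in both numbers. The run's mean was -3.41 ± 0.38 (SD, n = 2) in the controls and -2.92 ± 0.24 (SD, n = 2) after dTAG, a difference of 0.49, with 0.39 within number 1 and 0.59 within number 2. The difference was 0.22 without control 2, 0.32 without dTAG 1, 0.66 without dTAG 2 and 0.76 without control 1. The smallest difference was that of Tas2r120, 0.17 (0.10 and 0.24 within the numbers), and the largest that of Tas2r109, 0.70 (0.34 and 1.06). Tas2r109 scored -2.44 in control 1, -3.19 in control 2, -2.10 in dTAG 1 and -2.14 in dTAG 2. The 9 genes at which both dTAG profiles were above both controls, Tas2r117, Tas2r123, Tas2r116, Tas2r110, Tas2r113, Tas2r125, Tas2r129, Tas2r131 and Tas2r109, were neighbours. They took their scores from 1 unbroken stretch, chr6:132805000-133025000, that held no other protein-coding gene. At its edges the groups overlapped, on the left because dTAG 2 lay between both controls and on the right because control 1 was above dTAG 2. Over the whole family and with all profiles brought to 1 distribution, 20 Tas2r genes instead of 9 had both dTAG profiles above both controls (11.6% of all genes). In 6 both were below both controls (13.7% of all genes). After the median of each chromosome was subtracted 19 were above (11.5% of all genes) and 5 below (13.8%). With the mean within 25 kb of the midpoint 8 were above (9.99% of all genes) and 5 below (8.32%). The pseudogenes of this run, Tas2r145-ps3 to Tas2r141-ps4 by position, differed by 0.38 to 0.69, and the 7 genes between the runs by -0.37 to 0.15.

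In the run from Tas2r130 to Tas2r114 the differences were alike, 0.64 to 0.70, but unevenly spread over the replicate numbers. The run mean was -2.04 ± 1.35 (SD, n = 2) in the controls and -1.34 ± 0.59 (SD, n = 2) after dTAG, a difference of 0.69, with 0.15 within number 1 and 1.23 within number 2. The value turned on control 2. Without control 2 the difference was -0.26, or -0.08 with the all-gene median subtracted from each profile, and without control 1 it was 1.64. Over all 24 genes of the locus the difference was 0.54, and the exact permutation test over the profiles gave p = 0.667.

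Tas2r118 had the largest difference of the family, from -2.31 ± 1.30 (SD, n = 2) in the controls to -1.16 ± 0.51 (SD, n = 2) after dTAG. That is 1.15 with a limma SE of 0.69, 0.60 within number 1 and 1.71 within number 2, while control 1 lay between both dTAG profiles. Without control 2 it was 0.24 and without control 1 it was 2.07. The scores were higher after dTAG within both numbers over 610 kb, chr6:23685000-24295000, and the pooled difference peaked at chr6:23975000, the grid position next to the gene, at 1.15. The next genes on the right were unlike one another. Slc13a1, a sulfate transporter gene 159 kb away, differed by 0.95, but Iqub and Ndufa5, 510 kb and 554 kb away, differed by -1.22 and -1.10.

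The run from Tas2r139 to Tas2r126 differed in the opposite direction. Its mean was -0.95 ± 0.66 (SD, n = 2) in the controls and -1.66 ± 0.12 (SD, n = 2) after dTAG, a difference of -0.71, with -1.10 within number 1 and -0.33 within number 2. All 5 genes were lower within both numbers, by -0.58 at Tas2r139 to -0.79 at Tas2r144, and both dTAG profiles were below both controls at Tas2r139, Tas2r144, Tas2r143 and Tas2r135. At Tas2r139 the numbers gave -0.61 and -0.56 and at Tas2r144 -0.96 and -0.61, while at Tas2r143, Tas2r135 and Tas2r126 most of the difference came from number 1 (-1.34, -1.33 and -1.24, against -0.20, -0.19 and -0.09). The difference of the run was -0.25 without control 1 and -1.18 without control 2. The stretch with both dTAG profiles below both controls was chr6:42060000-42420000 and held 11 protein-coding genes, 4 of them Tas2r. Its largest difference, -0.996, did not fall on a bitter receptor but among the 7 other genes inside the run, Gstk1, Tmem139, Casp2, Clcn1, Fam131b, Zyx and Epha1, which differed by -0.99 to -0.90.

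Tas2r119 was lower after dTAG as well, at -0.34 ± 0.66 (SD, n = 2) in the controls and -1.21 ± 0.18 (SD, n = 2) after dTAG. The difference was -0.87, with -0.27 within number 1 and -1.46 within number 2, -0.40 without control 2 and -1.33 without control 1. It was the only protein-coding gene with its midpoint in a stretch of 460 kb, chr15:31945000-32405000, in which both dTAG profiles were below both controls. Sema5a, the gene for a guidance protein of growing axons and its neighbour on the right, differed by -0.85.

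The earliest genes differed little. Tas2r137, Tas2r108 and Tas2r138 had pooled differences of -0.18, -0.17 and -0.11, below 0 within number 1 (-0.42 to -0.36) and above 0 within number 2 (0.06 to 0.13). Their locus had a mean of 0.73 ± 0.66 (SD, n = 2) in the controls and 0.57 ± 0.31 (SD, n = 2) after dTAG. Tas2r134 differed by 0.22, with -0.15 within number 1 and 0.58 within number 2. At these 4 genes the replicate numbers gave opposite signs. Over the 6 loci the exact permutation test, two-sided over 4 profiles, gave p = 0.333 at Tas2r119 and at Tas2r139 to Tas2r126, which is the smallest value that 2 against 2 allows, and 0.667 to 1.0 at the others, and every p was 1.0 after Benjamini-Hochberg adjustment over the 6.

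By gene counts over the whole family, which 1 locus dominates, the Tas2r genes were the latest of the chemosensory receptor families. Below 0 in all profiles were 85.7% of Tas2r genes, 61.3% of 1105 Olfr genes (odorant receptors), 67.1% of 228 Vmn1r genes and 62.3% of 122 Vmn2r genes (both vomeronasal pheromone receptors). Of the 30 such Tas2r genes, 24 were from 1 locus and share smoothed reads, so the share stands for few independent places. Outside that locus they were 4 of 5 genes from Tas2r139 to Tas2r126, 1 of 3 from Tas2r137 to Tas2r138, and Tas2r118. Tas2r134 and Tas2r119 were not among them. Without the locus the Tas2r share was thus below those of Olfr, Vmn1r and Vmn2r genes, so the ranking rests on it. The medians of the mean score were -2.40, -1.17, -1.36 and -1.73 in that order. The 3 Tas1r genes, which encode the sweet and umami receptors, had a median of 3.79 and were above 0 in every profile, at percentiles 64.9 to 67.7 of all genes. The difference of these levels between families was not tested. With all 4 profiles the median dTAG minus control differences were 0.43 for Tas2r, 0.18 for Olfr, -0.004 for Vmn1r and 0.18 for Vmn2r genes. In the same order the medians were 0.22, 0.07, 0.11 and 0.19 within number 1. Within number 2 they were 0.49, 0.28, -0.01 and 0.21. Without control 2 the Tas2r median was -0.0027, or 0.17 with all-gene medians subtracted. The median of all genes was then -0.22. No value without control 2 is given for the other families, so the families cannot be compared in that setting. Both dTAG profiles were above both controls in 28.5% of Olfr, 16.2% of Vmn1r and 36.1% of Vmn2r genes, against 25.7% of Tas2r genes, so a share above the 10.0% of all genes was not particular to bitter receptors. Within both replicate numbers dTAG was higher in 71.4% of Tas2r, 48.8% of Olfr, 40.8% of Vmn1r and 68.9% of Vmn2r genes (25.3% of all genes). It was lower in both in 17.1%, 15.7%, 25.4% and 9.02% in that order (30.6% of all genes).

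**Figure D4:**
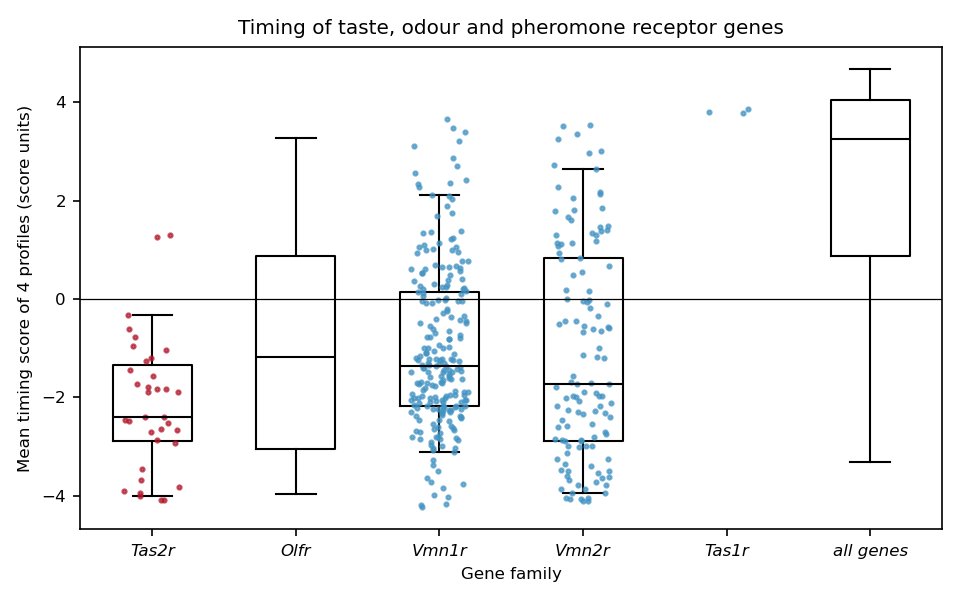
Mean timing score of the 4 profiles (score units) by gene family; boxes are quartiles with the median, whiskers run from percentile 5 to 95, and points are genes (not drawn for Olfr and all genes). The Tas2r median is -2.40 and the Olfr median -1.17, while the 3 Tas1r genes sit at 3.78 to 3.85.

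Most genes of the taste signalling list scored above 0, as most genes of the genome did. In taste cells a bitter receptor activates the G protein of Gnat3 (gustducin), Gnb3 and Gng13, phospholipase Plcb2 and the IP3 receptor Itpr3 release calcium, Trpm5 and Trpm4 depolarise the cell, and ATP leaves through Calhm1 and Calhm3 to reach nerve fibres with P2rx2 and P2rx3. Of 16 scored genes from a list of 17 for taste cell signalling (Calhm3, a pseudogene in the RefSeq table, was not scored), which holds the 3 Tas1r genes too, 14 were above 0 in all 4 profiles (77.5% of all genes) and 1, Rgs21, a regulator of G protein signalling found in taste cells, was below 0 in all. The 14 of 16 (87.5%) are close to the share of all genes, and they include the 3 Tas1r genes, which are receptors for other tastes and do not act downstream of Tas2r proteins. Rgs21 scored -4.58 in control 1, -4.89 in control 2, -4.33 in dTAG 1 and -4.98 in dTAG 2, and Entpd2, an ATP-degrading enzyme of taste buds, had the highest scores, 5.50, 4.63, 5.59 and 4.04. Gnat3 was late or near 0, at -0.42, -1.19, 0.37 and -0.68, and had the highest difference of the list, 0.65 (0.79 and 0.51 within the numbers). Plcb2 had the lowest, -0.40 (-0.42 and -0.37), with scores of 3.65, 3.12, 3.23 and 2.75. The median difference of the 16 was -0.07. Both dTAG profiles were above both controls in 0 of the 16 (10.0% of all genes) and below them in 1, Trpm5 (8.42% of all genes), and limma called 0 of the 16 in either direction, with 0 at an unadjusted p under 0.05.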

How the data were processed

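The members and gene lists were chosen with earlier results of these data known. Per the submitters' processing notes Bowtie2, SAMtools, bedtools and mm10 were used, with no version, role or order given. The deposited values are a signed timing score for each of 526745 positions at a spacing of 5 kb, of which 514245 had a score in all 4 profiles; per the file headers and name the authors smoothed them with Loess and quantile normalized them. The formula, log base and direction of the score were not stated there. Per the labels, 8 samples made the 4 profiles, and the first replicate of each group has no number and was called 1.

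Each gene took the score of the position nearest its midpoint, from the RefSeq table of GRCm38.p6, where 21519 of 21896 protein-coding genes had one. The table gives no strand. Neighbouring genes share reads through the smoothing, and every profile was forced to a set spread by the quantile step. The test of dTAG against control was limma 3.58.1 under R 4.3.3 (eBayes on the group term, two-sided, Benjamini-Hochberg over all genes, threshold 0.05) after a check on simulated data, and loci by exact permutation. The simulated shifts were larger than any Tas2r difference, so the check does not show whether the test could find differences of the size seen here. Promoter windows were aligned in pairs with Biopython 1.88 under Python 3.11.15, and plots drawn with matplotlib 3.10.9. Alternatives were a replicate block, a trended and robust variance, 1 distribution for all profiles, chromosome centring, the mean within 25 kb, gene starts and ends, a gap of 0.5 Mb, and leaving out each profile. All members were described by a rule: in every profile outside the 24-gene locus, and inside it the first, last, and extreme genes by score and difference.

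Same-numbered profiles deviated from their group means together (r = 0.6357 over 21519 genes, which are not replicates), but with 2 pairs and no label that ties a number to a culture or day, the number was not used as a block in the reported test.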

Additional observations from a re-analysis of the deposited data

How the results depend on the processing

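With all profiles kept, the direction of every locus difference and the 0 limma calls among Tas2r genes held under each alternative that was run for them. The count of 30 late genes was 32 with 1 distribution for all profiles. With the replicate block limma called 0 genes and 0 Tas2r genes, with 1652 genes (7.68%) and 10 Tas2r genes at an unadjusted p under 0.05 and a smallest adjusted p among Tas2r genes of 0.581. Without any 1 profile the replicate numbers were no longer balanced, which moved the median difference of all genes from -0.02 to between -0.28 and 0.20. limma then called 0 to 5 genes, none of them Tas2r, and the median Tas2r difference of 0.43 became -0.0027 without control 2, 0.21 without dTAG 1, 0.65 without dTAG 2 and 0.68 without control 1. With the all-gene median score subtracted from each profile, a setting added after seeing the data, it was 0.17 without control 2. It was up to 0.59 without control 1. The difference of Tas2r137 to Tas2r138, -0.16 with all profiles, ranged from -0.62 without control 2 to 0.31 without control 1, and turned as well to 0.07 without dTAG 2 and 0.22 without control 1 with medians subtracted. That of Tas2r134, 0.22, ranged from -0.29 without control 2 to 0.72 without control 1, and turned to -0.12 without control 2 with medians subtracted. Fewer profiles and the offset between replicate numbers are part of these settings; no other cause was tested. At a gap of 0.5 Mb the largest locus had 18 genes. Depth is unknown, so how far it limits these differences was not tested.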
